A study of Homo sapiens with 6 samples.

Results

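Sunitinib-resistant 786-O (7R) cells and control 786-O cells were compared for 9 genes that respond to oxygen shortage and act outside energy metabolism, namely CA12, ADM, NDRG1, BNIP3, BNIP3L, ANGPTL4, ANKRD37, CXCR4 and STC2. The genes were chosen by symbol, and all 9 were found among the 54261 gene rows of the count table. 786-O is a widely used cell line from a human clear-cell renal carcinoma, and sunitinib is a kinase inhibitor whose targets include the receptors for VEGF and PDGF. Total RNA was sequenced as 3 libraries of 7R, labelled sunitinib-resistant, and 3 libraries of 786-O, labelled control. Both lines were grown in the same medium. The labels do not say whether 7R is 1 clone, whether drug was present at harvest, or whether separate cultures stand behind the replicates. All p-values thus measure the spread between libraries, which may be technical.

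Hypoxia-inducible factors are pairs of an alpha subunit (HIF1A, EPAS1 or HIF3A) and a beta subunit such as ARNT. In oxygen, prolyl hydroxylases of the EGLN family mark the alpha subunit for destruction by VHL. The 786-O line carries a loss of VHL and relies on EPAS1, because it makes no functional HIF1A protein, so genes of this group can be driven there without hypoxia. They encode secreted peptides, a chemokine receptor, an enzyme of pH control and proteins of mitochondrial clearance.

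The resistant libraries held 37919629 to 38131634 counts and the control libraries 48264905 to 52221491. Levels are given as CPM, counts brought to a common library total with TMM factors, and fold changes are resistant over control. The test was the quasi-likelihood test of edgeR, with Benjamini-Hochberg adjustment over 16642 tested genes. The floor for an unseen transcript was 3 counts in a library, equal to 0.0663 to 0.0707 CPM, and covers counting error only. At an adjusted p under 0.05, 76.2% of all tested genes changed, 6540 (39.3%) higher and 6143 (36.9%) lower in the resistant line. With scaling by library size alone the split was 7851 higher and 4720 lower. Fold change fell with the GC content of transcripts across all genes (Spearman's rho -0.69 over 14212 genes, which are not independent replicates), with a median log2 fold change of 1.32 in the decile poorest in GC and -1.35 in the richest. The 8 tested genes, the gene groups and most other named genes are therefore given also with an offset for GC content and transcript length, and such values are called GC-adjusted. Resistant replicate 1 stood apart from the other resistant libraries (chi-square per degree of freedom 60.1 and 62.9, against 8.94 between the other two), and control replicate 1 from the other controls (26.5 and 35.5, against 12.4). Renal carcinoma markers were present in both lines (8 of 10 tested, 1 higher and 5 lower, GC-adjusted 3 higher and 2 lower), with PAX8 at 407 CPM in resistant and 545 CPM in control libraries (GC-adjusted log2 fold change 0.50), while CA9 was at 0 in each library. The summed level of the 10 was 2796 to 3372 CPM in resistant and 10300 to 11172 CPM in control libraries, most of it from VIM, at 2406 CPM in resistant and 9987 CPM in control libraries, and its part in the results was not tested. Because the extraction text mentions a brain region, 8 brain markers were checked. Their summed level was 41.2 to 44.8 CPM in resistant and 29.95 to 32.3 CPM in control libraries, mostly from MBP. Of the 8, 5 were tested, 2 higher and 1 lower (GC-adjusted 3 higher and 1 lower). GFAP had 2 and 8 counts over the resistant and the control libraries, AQP4 had 46 and 0, GAD1 had 239 and 569, and RBFOX3 had 119 and 83. The part of these markers in the results was not tested. Summed endothelial and immune markers were 0.754 to 0.935 CPM in resistant and 0.341 to 0.899 CPM in control libraries, with PTPRC and CD3E at 0 in each.

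Of the 9 genes, 8 had enough counts to be tested. ANGPTL4, ADM, NDRG1 and CA12 fell in the resistant line, BNIP3L rose, and BNIP3, STC2 and ANKRD37 did not pass the test. These are 5 of 8, where 76.2% of all tested genes passed, with 4 lower (background 36.9%) and 1 higher (background 39.3%). The groups did not overlap for the 5 genes that passed, where 80.3% of all tested genes showed no overlap. ANGPTL4, ADM and NDRG1 fell at least 2-fold, as did 22.4% of all tested genes, and none of the 8 rose as much, where 27% did, with 49.4% in either direction. The median log2 fold change of the 8 genes was -0.53, against 0.05 over all tested genes. GC-adjusted, 6 of 8 passed, where 66.9% of 14212 genes did. Of these 5 were lower (background 32.5%) and 1, STC2, was higher (background 34.4%). ANGPTL4 alone among the 8 changed at least 2-fold, against 23.4% of genes, of which 9.15% were lower and 14.3% higher. The same shares over all tested genes are the background for the counts of the other gene groups. In RNA from whole cultures, fewer expressing cells and less RNA per cell cannot be told apart.

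**Figure D1:**
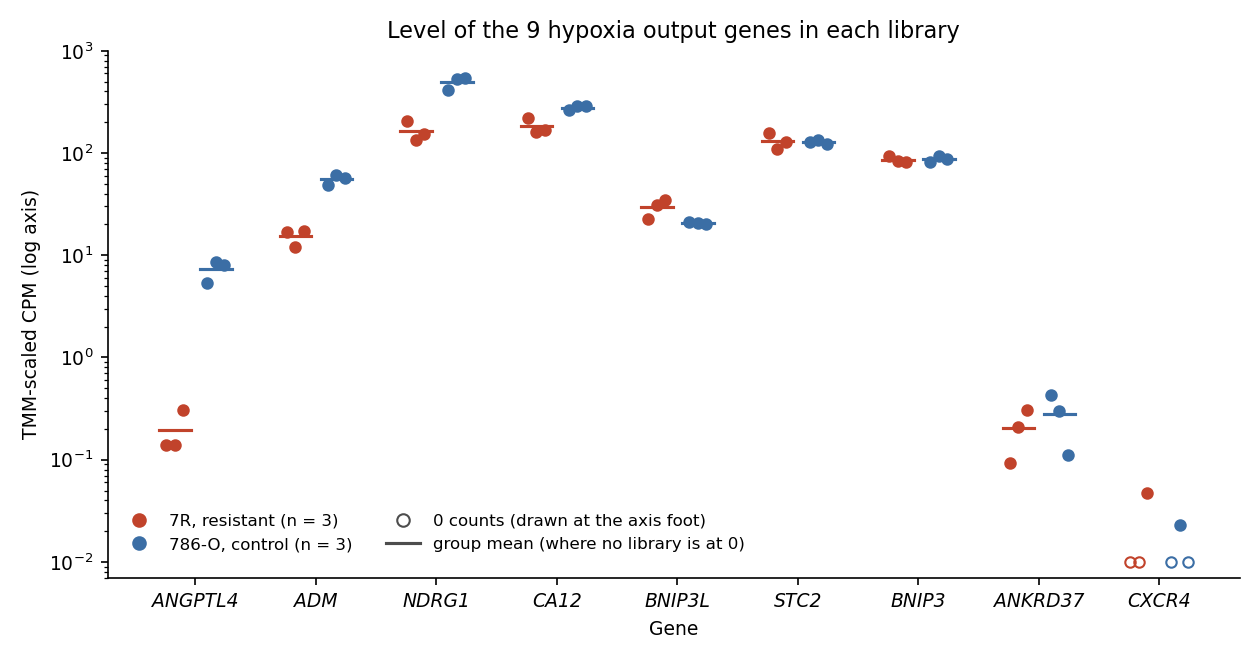
Level of each gene in each library as TMM-scaled CPM on a log axis, with 7R resistant libraries in red left of 786-O control libraries in blue (n = 3 each). Points are libraries, lines are group means where no library is at 0, and open circles mark libraries with 0 counts. ANGPTL4, ADM, NDRG1 and CA12 sit lower in every resistant library than in every control library, and BNIP3L sits higher.

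The promoters are shown because the HIF complex binds a short core, ACGTG or GCGTG, and the genes that can carry it moved in different ways. RefSeq promoter windows (GRCh38.p14, 250 bases before to 50 after the annotated start) were available for CA12, ADM, BNIP3, ANGPTL4, ANKRD37, CXCR4 and STC2. Both cores were searched on both strands, where they read CACGT and CACGC in reverse, and CACGTG holds ACGTG on both strands. ACGTG was found in 21.4% and GCGTG in 36.5% of 35116 promoter windows, and 48.4% held at least 1 of them. Core matches are in capitals, positions count back from the last base before the start (-1), and each sequence reads 5′ to 3′ along the gene. ANGPTL4 (chr19:8363905-8364150, plus strand) is shown from -250 to -5 and BNIP3 (chr10:131982014-131982173, minus strand) from -250 to -91. These stretches of ANGPTL4 and BNIP3 lie outside exons annotated in GENCODE 29. The other 4 are 30 bases around their first match: ADM (chr11:10304959-10304988, plus strand), CA12 (chr15:63382064-63382093, minus strand), STC2 (chr5:173328626-173328655, minus strand) and ANKRD37 (chr4:185396676-185396705, plus strand). In these 4 windows GENCODE exons of the same gene cover all 250 bases before the RefSeq start, so the bases shown can be part of the transcript.
ANGPTL4: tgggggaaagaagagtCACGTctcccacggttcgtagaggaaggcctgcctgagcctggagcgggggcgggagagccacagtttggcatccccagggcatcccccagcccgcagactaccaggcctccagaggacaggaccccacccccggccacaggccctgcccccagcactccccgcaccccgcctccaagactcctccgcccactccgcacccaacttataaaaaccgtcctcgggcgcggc
ADM: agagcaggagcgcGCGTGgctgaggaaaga
CA12: ggcggatctcaccCACGCctgccagcagct
BNIP3: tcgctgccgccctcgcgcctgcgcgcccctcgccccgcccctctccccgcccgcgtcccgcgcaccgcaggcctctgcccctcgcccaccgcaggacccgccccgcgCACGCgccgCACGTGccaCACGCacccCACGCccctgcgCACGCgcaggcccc
STC2: catacaCACGCACGCaaacGCGTGgccgcc
ANKRD37: ctcCACGTGccagtgtttgtgtACGTGcgg
The BNIP3 window held 2 overlapping ACGTG matches as CACGTG at -134, with 4 GCGTG matches around it. The ANKRD37 window held CACGTG at -162 and a further ACGTG at -143. ANGPTL4, which fell most, had 1 ACGTG match, at -234, and ADM had 1 GCGTG match, at -101. CA12 had a further GCGTG match that begins at base 40 after the start, outside the bases shown. CXCR4, not shown, had 3 windows, with 1, 0 and 2 GCGTG matches. Each gene with a window had at least 1 match, where 48.4% of all windows did. These matches are letters in a window and not sites known to be bound in these cells.

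ANGPTL4 encodes a secreted protein that inhibits lipoprotein lipase and is also induced by PPAR factors. It had 6, 6 and 13 counts in the resistant libraries, against 235, 371 and 365 in the control libraries. This gave 0.195 ± 0.0962 CPM in resistant and 7.32 ± 1.73 CPM in control libraries (SD, n = 3 each), and the resistant libraries lay far below every control library. The log2 fold change was -5.21 ± 0.34 (SE, edgeR adjusted p = 1.42e-07), a 37.0-fold lower level. Only 0.343% of tested genes had a lower log2 fold change. Its transcripts have a GC content of 63.8%, in the richest decile, whose median log2 fold change was -1.35. The GC-adjusted log2 fold change was -3.66 (edgeR adjusted p = 1.91e-06), so ANGPTL4 stayed 12.6-fold lower. RAB11B-AS1, an antisense gene, shares 1 exonic base with it.

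Of 12 other genes of the angiopoietin-like and lipase group, 4 could be tested, of which 1 rose and 3 fell (GC-adjusted 1 higher and 2 lower). ANGPTL7 and ANGPTL8 were at 0 in each library, and LPL, the lipase itself, named after its values were seen, had 1 count in resistant and 5 in control libraries. PPARG, a nuclear receptor of fat storage, fell to 4.32 ± 0.999 CPM in resistant libraries, against 12.0 ± 0.178 CPM in control libraries, with a log2 fold change of -1.48 (edgeR adjusted p = 1.04e-05, GC-adjusted -1.56). PPARD fell by 1.16 on the log2 scale and did not pass after the adjustment (-0.07, edgeR adjusted p = 0.456). PPARA rose by 0.75 (GC-adjusted 0.39).

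ADM encodes adrenomedullin, a vasodilator peptide that acts on the receptor CALCRL together with a RAMP protein. It had 726, 515 and 726 counts in the resistant libraries, against 2144, 2638 and 2575 in the control libraries. The groups were far apart, with 17.1 CPM in the highest resistant library and 48.7 CPM in the lowest control library. ADM averaged 15.3 ± 2.84 CPM in resistant and 55.5 ± 6.17 CPM in control libraries (SD, n = 3 each), a log2 fold change of -1.86 ± 0.15 (SE, edgeR adjusted p = 5.89e-07) or 3.62-fold lower. At a GC content of 59.4% it lies in a decile with a median log2 fold change of -1.19. It remained lower GC-adjusted, at -0.64 ± 0.11 on the log2 scale (edgeR adjusted p = 3.02e-04), or 1.56-fold.

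ADM2, the related peptide intermedin, moved the other way. It averaged 7.93 ± 1.92 CPM in resistant and 3.19 ± 0.374 CPM in control libraries, with a log2 fold change of 1.31 ± 0.21 (edgeR adjusted p = 1.01e-04, GC-adjusted 2.90). Of 9 genes of the adrenomedullin group 5 were tested, 2 higher and 2 lower (GC-adjusted 1 higher and 1 lower). The receptor parts were scarce, a choice of genes made after their values were seen: CALCRL had 6 counts over the resistant and 32 over the control libraries, RAMP1 had 16 and 3, RAMP2 had 2 and 1, and RAMP3 had none. Of the 32 CALCRL counts, 28 lay in control replicate 1. PAM, the enzyme that amidates such peptides, was at 136 CPM in resistant and 117 CPM in control libraries and did not pass (edgeR adjusted p = 0.0734, GC-adjusted log2 fold change -0.17), but was higher without resistant replicate 1 (adjusted p = 0.00882). Without resistant replicate 3 or control replicate 3, 1 gene of the group was higher.

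STC2, a stanniocalcin, is a secreted glycoprotein that inhibits the proteases PAPPA and PAPPA2 and is also induced by the stress factor ATF4. It had 6707, 4687 and 5383 counts in the resistant libraries, against 5645, 5794 and 5505 in the control libraries. Resistant replicate 1 was the highest and resistant replicate 2 the lowest of the 6 in CPM, so the control range lay inside the resistant one. The means were 131 ± 23.1 CPM in resistant and 128 ± 5.97 CPM in control libraries, with a log2 fold change of 0.031 ± 0.13 (SE, edgeR adjusted p = 0.836). STC2 GC-adjusted was higher by 0.32 ± 0.10 on the log2 scale (edgeR adjusted p = 0.0182). With resistant replicate 1 left out as well, an alternative chosen after seeing the data, this was 0.19 (edgeR adjusted p = 0.0499). Scaled by library size alone it was 0.37 (edgeR adjusted p = 0.0228), where the median of all genes moved to 0.39.

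STC1, the other stanniocalcin, fell to 1.82 ± 0.167 CPM in resistant libraries, against 5.96 ± 0.551 CPM in control libraries (log2 fold change -1.71, edgeR adjusted p = 5.79e-06, GC-adjusted -2.29). Inside each library STC2 exceeded STC1 by 77.1, 63.3 and 73.7 times in the resistant line and by 21.5, 24.7 and 18.7 times in the control line. This ratio does not depend on scaling between libraries, and its mean log2 was 1.73 higher in the resistant line (exact 2-sided permutation p = 0.1, the smallest that 3 against 3 can give; 0.2 adjusted over the 2 ratios tested). Of 7 genes of the stanniocalcin group, all tested, 4 rose and 1 fell (GC-adjusted 3 higher and 2 lower). The proteases that STC2 inhibits were higher. PAPPA2 averaged 102 ± 21.0 CPM in resistant and 8.21 ± 1.49 CPM in control libraries (log2 fold change 3.63 ± 0.19, edgeR adjusted p = 4.28e-08, GC-adjusted 3.56). PAPPA had 1188, 1958 and 1894 counts in resistant libraries, against 18, 353 and 420 in control libraries, so control replicate 1 was far below the other controls. Its log2 fold change was 2.72 ± 0.61 (edgeR adjusted p = 0.00146), and 2.12 without control replicate 1. ATF4 was higher by 0.26 on the log2 scale (edgeR adjusted p = 0.0256), a call lost without resistant replicate 3 (adjusted p = 0.0635) and without control replicate 1, 2 or 3 (adjusted p = 0.118, 0.136 and 0.117). The GC-adjusted value was 1.21.

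CXCR4, the receptor for the chemokine CXCL12, was near absent. It had 0, 0 and 2 counts in the resistant libraries, against 0, 1 and 0 in the control libraries, at or under the floor, so no fold change is given. Its ligand CXCL12, also named after its values were seen, had 1 count over the resistant and 0 over the control libraries. ACKR3, a second CXCL12 receptor, named here after its values were seen, had 7 counts over the resistant and 204 over the control libraries, and fell (edgeR adjusted p = 4.03e-06), with no fold given because each resistant library was at or under the floor. Of 9 tested genes of the CXCR4 group 5 fell and 1 rose, and 3 fell without control replicate 3. GC-adjusted, 2 were lower and 4 higher. ACKR3 is among the lower genes on both scales and is counted in the adrenomedullin group too. GRK2, which phosphorylates such receptors, and GNAI2, a G protein subunit, had log2 fold changes of -1.59 and -1.27, and neither passed GC-adjusted. MIF, a cytokine, had 45, 54 and 32 counts in resistant libraries, against 67, 70 and 3022 in control libraries. Its log2 fold change of -4.51 rested on control replicate 3 and was -0.65 without it (edgeR adjusted p = 0.116).

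CA12 encodes a membrane carbonic anhydrase whose active site faces outward and which takes part in pH control. It had 9600, 6894 and 7080 counts in the resistant libraries, against 11499, 12391 and 13046 in the control libraries. In CPM these were 222, 161 and 167 in the resistant and 261, 286 and 288 in the control libraries, with resistant replicate 1 nearest to the controls. The log2 fold change was -0.60 ± 0.13 (SE, edgeR adjusted p = 9.75e-04), or 1.52-fold lower. Without resistant replicate 1 it was -0.77. GC-adjusted it was -0.27 ± 0.098 (edgeR adjusted p = 0.0298), and scaled by library size alone, which moves the median of all genes to 0.39, it was -0.26 and did not pass (edgeR adjusted p = 0.0917).

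Among carbonic anhydrases and pH transporters 11 of 20 genes were tested, with 4 higher and 4 lower (GC-adjusted 3 higher and 3 lower). CA9, CA4, CA5A, CA7 and CA14 were at 0 in each library. CA13, a cytosolic anhydrase, rose by 1.48 on the log2 scale (edgeR adjusted p = 1.96e-06, GC-adjusted 0.42). SLC4A7, a bicarbonate importer, rose by 1.38 (GC-adjusted 0.66). SLC4A2, an anion exchanger, fell by 1.73 (GC-adjusted -0.41). SLC16A3, a lactate exporter, fell by 1.47 and did not pass after the adjustment (0.078, edgeR adjusted p = 0.346).

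NDRG1 encodes a cytoplasmic stress protein that is phosphorylated by the kinase SGK1. Its level per kilobase, by median GENCODE transcript length, had the highest mean of the 9 in each line. In the resistant line this level overlapped with that of CA12, which had the higher mean CPM before division by length (183 against 165). NDRG1 had 8943, 5745 and 6473 counts in the resistant libraries, against 18327, 23145 and 24515 in the control libraries. The means were 165 ± 37.9 CPM in resistant and 497 ± 70.1 CPM in control libraries (SD, n = 3 each), a log2 fold change of -1.59 ± 0.16 (SE, edgeR adjusted p = 2.52e-06) or 3.02-fold lower. Its transcripts have a GC content of 59.2%, in the same decile as ADM. The GC-adjusted log2 fold change was -0.35 ± 0.097 (edgeR adjusted p = 0.00741), or 1.28-fold lower. Resistant replicate 1 was the highest resistant library, and without it the unadjusted value was -1.80.

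SGK1 fell too, to 4.57 ± 0.739 CPM in resistant libraries, against 22.1 ± 1.17 CPM in control libraries (log2 fold change -2.28 ± 0.15, edgeR adjusted p = 1.86e-07, GC-adjusted -2.52). Of 5 tested genes among the other NDRG genes and their regulators 3 fell and none rose, and 5 fell without resistant replicate 1, MYC among them (-0.25). GC-adjusted, 4 were lower and 1 higher. NDRG3 was at 77.2 CPM in resistant and 87.1 CPM in control libraries (edgeR adjusted p = 0.179) and passed GC-adjusted, at -0.44 on the log2 scale (edgeR adjusted p = 0.00187). MYC, which represses NDRG1 in other cells, was at 174 CPM in resistant and 181 CPM in control libraries (edgeR adjusted p = 0.740) and was higher by 0.87 on the log2 scale after adjustment for GC content and length (edgeR adjusted p = 1.53e-05).

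BNIP3 and BNIP3L, also called NIX, are related proteins of the outer mitochondrial membrane that bind autophagy proteins and direct mitochondria to clearance. BNIP3 had 4009, 3609 and 3476 counts in the resistant libraries, against 3635, 4041 and 3982 in the control libraries. In CPM the libraries interleaved, at 92.8, 84.3 and 81.9 in the resistant and 82.6, 93.1 and 88.0 in the control line. The log2 fold change was -0.026 ± 0.10 (SE, edgeR adjusted p = 0.833). Genes of like GC content (44.8%) had a median log2 fold change of 0.47, and the GC-adjusted BNIP3 value was -0.49 ± 0.095 (edgeR adjusted p = 7.37e-04). Scaled by library size alone it was 0.32 (edgeR adjusted p = 0.0167), below the median of 0.39 that all genes had on that scale. The table has 40 BNIP3 pseudogene rows, which together had 79 counts in resistant and 33 in control libraries, and some BNIP3 reads may have been assigned to them.

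BNIP3L had 985, 1315 and 1482 counts in the resistant libraries, against 928, 904 and 906 in the control libraries. Resistant replicate 1 was close to the controls, at 22.8 CPM against a highest control of 21.1 CPM, and the other resistant libraries were at 30.7 and 34.9 CPM. The log2 fold change was 0.51 ± 0.15 (SE, edgeR adjusted p = 0.00712), or 1.43-fold higher. Without resistant replicate 3 it was 0.37 and did not pass (edgeR adjusted p = 0.0504). GC-adjusted it was 0.053 (edgeR adjusted p = 0.722). PNMA2, on the opposite strand, shares 330 exonic bases with BNIP3L and had 0 counts in resistant and 330 in control libraries, and whether the counts separate strands is not given in the sources used here.

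Inside each library the ratio of BNIP3 to BNIP3L was 4.07, 2.74 and 2.35 in the resistant line and 3.92, 4.47 and 4.395 in the control line. The difference in mean log2 ratio was -0.52, and the groups overlapped through resistant replicate 1 (exact 2-sided permutation p = 0.2, where 0.1 is the smallest possible; 0.2 adjusted over the 2 ratios).

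**Figure D2:**
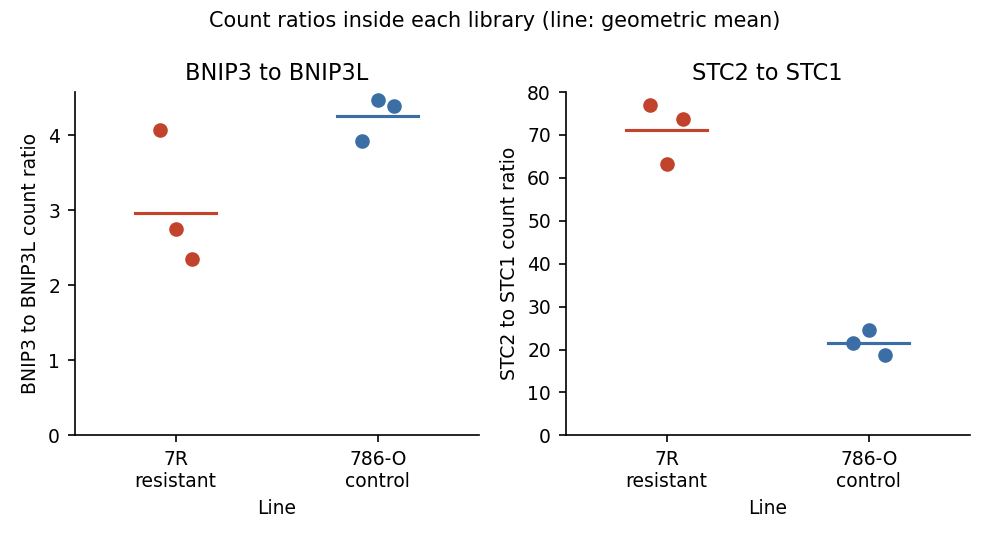
Ratio of BNIP3 to BNIP3L counts (left) and of STC2 to STC1 counts (right) inside each library, with 7R resistant libraries left of 786-O control libraries (n = 3 each). Points are libraries and lines are geometric means. The STC2 to STC1 ratio is 63.3 to 77.1 in resistant and 18.7 to 24.7 in control libraries, while the BNIP3 to BNIP3L ratios overlap.

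Of 17 mitophagy receptors and partners of these proteins 16 were tested, with 6 higher and 5 lower (GC-adjusted 7 higher and 6 lower). OPA1, a fusion protein of the inner membrane that binds BNIP3, averaged 164 ± 31.8 CPM in resistant and 48.01 ± 5.97 CPM in control libraries (log2 fold change 1.77, edgeR adjusted p = 8.06e-07, GC-adjusted 0.45). FKBP8, a mitophagy receptor, averaged 63.3 ± 8.97 CPM in resistant and 205 ± 11.0 CPM in control libraries, a log2 fold change of -1.69 that did not pass after the adjustment (-0.071, edgeR adjusted p = 0.331). PHB2, a receptor of the inner membrane, and BCL2L1, a survival protein that BNIP3 can bind, had log2 fold changes of -1.20 and -1.20 (GC-adjusted -0.18 and -0.24).

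ANKRD37, a small ankyrin-repeat protein, was detected at a few counts per library. It had 4, 9 and 13 counts in the resistant libraries, against 19, 13 and 5 in the control libraries. The ranges overlapped, and the log2 fold change was -0.46 ± 0.65 (SE, edgeR adjusted p = 0.530), or 0.36 GC-adjusted (edgeR adjusted p = 0.652). The ratio of summed counts on the TMM scale was 0.726 (exact 95% interval 0.422 to 1.23, counting error only), so a difference of this size was not detectable with so few counts. UFSP2, on the opposite strand, shares 909 of the 2580 exonic bases of ANKRD37 and had 442 counts in resistant and 236 in control libraries.

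**Figure D3:**
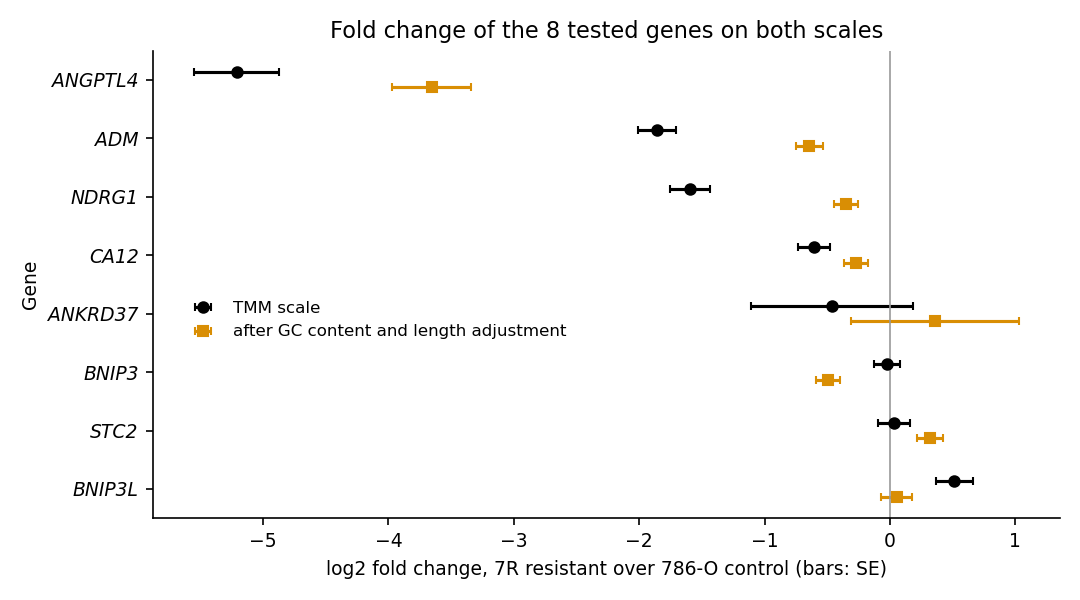
Log2 fold change of the 8 tested genes, 7R resistant over 786-O control, on the TMM scale (black circles) and after adjustment for GC content and length (orange squares), with bars for the standard error. ANGPTL4 lies at -5.21 and -3.66, ADM and NDRG1 move toward 0 with the adjustment, BNIP3 moves away from 0 to -0.49, and the bars of ANKRD37 cross 0 on both scales.

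Per kilobase of transcript, by median GENCODE length, the order in the resistant line was NDRG1 (75.5 ± 17.4 CPM per kilobase), CA12 (66.8 ± 12.3), BNIP3 (30.2 ± 2.002), BNIP3L (26.0 ± 5.43), STC2 (24.4 ± 4.31) and ADM (12.2 ± 2.27). NDRG1 and CA12 overlapped there, as did BNIP3, BNIP3L and STC2 with each other. In the control line the order of levels was NDRG1 (228 ± 32.1), CA12 (101 ± 5.42), ADM (44.2 ± 4.92), BNIP3 (30.7 ± 1.84), STC2 (23.9 ± 1.12), BNIP3L (18.2 ± 0.492) and ANGPTL4 (4.08 ± 0.966), and no neighbours overlapped. By these lengths ADM stood below STC2 in the resistant line and above BNIP3 in the control line. The order depends on the lengths used, which fall short of all exonic bases to unlike degrees. BNIP3L was taken as 1133.5 bases, against 4307 exonic bases in all, and NDRG1 as 2180, against 9823. For CA12 these were 2744 and 7313, and for STC2 5353 and 6128. ANKRD37, at 0.178 CPM per kilobase in resistant and 0.246 in control libraries, overlapped with ANGPTL4 in the resistant line.

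**Figure D4:**
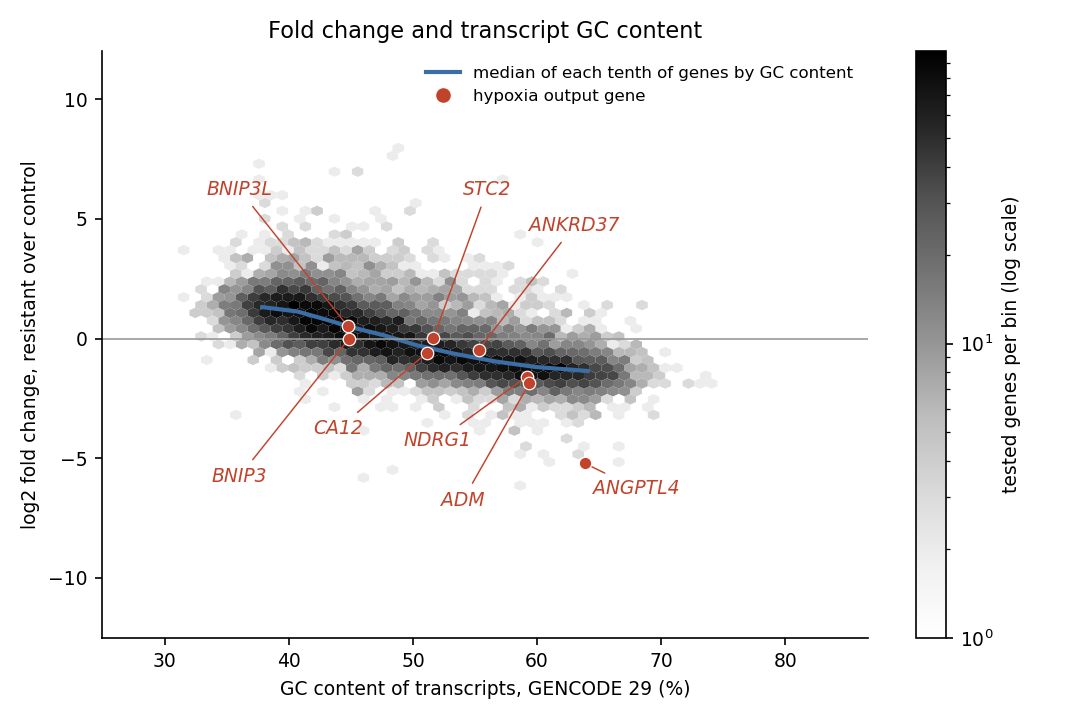
Log2 fold change (7R resistant over 786-O control) against transcript GC content for all tested genes with a GC value (grey bins, darker for more genes), with the median of each decile of genes (blue line) and the 8 tested hypoxia output genes (red). NDRG1 and ADM, at 59.2% and 59.4% GC, lie below but close to the line, while ANGPTL4 at -5.21 lies far below it.

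Most genes of the HIF machinery differed between the lines, as 76.2% of all tested genes did. EPAS1, the alpha subunit active in 786-O cells, fell to 53.7 ± 6.32 CPM in resistant libraries, against 137 ± 12.7 CPM in control libraries (log2 fold change -1.35 ± 0.12, edgeR adjusted p = 1.09e-06, GC-adjusted -0.94). EGLN3, a hydroxylase that is also a HIF target, averaged 3.77 ± 0.632 CPM in resistant and 45.8 ± 2.75 CPM in control libraries (log2 fold change -3.60, GC-adjusted -3.69). Of 11 tested genes of the HIF machinery 6 fell (background 36.9%) and 2 rose (background 39.3%), with a median log2 fold change of -0.62. GC-adjusted, 9 were lower (background 32.5%) and none higher (background 34.4%). HIF1AN, which hydroxylates the alpha subunits at an asparagine, CITED2, CREBBP and ARNT2 fell, with log2 fold changes of -0.63, -0.62, -0.92 and -0.87 (GC-adjusted -1.21, -0.35, -0.25 and -0.38). HIF1A and EGLN1 rose by 0.98 and 0.35 and were lower GC-adjusted (-0.29 and -0.37, edgeR adjusted p = 0.0451 and 0.00339). The EGLN1 call was lost without resistant replicate 3 (edgeR adjusted p = 0.0889), without control replicate 2 (0.0616) and without control replicate 3 (0.135). ARNT, VHL and EP300 did not pass (edgeR adjusted p = 0.774, 0.320 and 0.783). VHL passed GC-adjusted, at -0.37 (edgeR adjusted p = 0.00248), while ARNT and EP300 did not (0.102 and 0.0931). EGLN2 and HIF3A, chosen after their values were seen, could not be tested, with 0 and 3 counts in resistant and 1 and 6 in control libraries.

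Of 29 tested HIF targets outside the 9 genes and outside glycolysis 15 fell (background 36.9%) and 9 rose (background 39.3%), with a median log2 fold change of -0.35. GC-adjusted, 12 were lower (background 32.5%) and 8 higher (background 34.4%), with a median of 0.040, against 0.022 over all genes. At least 2-fold, 9 of the 29 fell (background 22.4%) and 5 rose (background 27%). The 15 that fell include EGLN3, STC1 and NDUFA4L2, also counted in the HIF machinery, the stanniocalcin group and the renal carcinoma markers, respectively. The genes with the smallest p all fell, so those named here do not stand for the group. LOXL2, which cross-links collagen, EGLN3, and IGFBP3, which binds insulin-like growth factors, were among them and fell on both scales. LOXL2 averaged 95.9 ± 2.23 CPM in resistant and 889.7 ± 69.4 CPM in control libraries (log2 fold change -3.21, edgeR adjusted p = 2.01e-09, GC-adjusted -2.17). CA9 was again at 0 in each library.

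**Figure D5:**
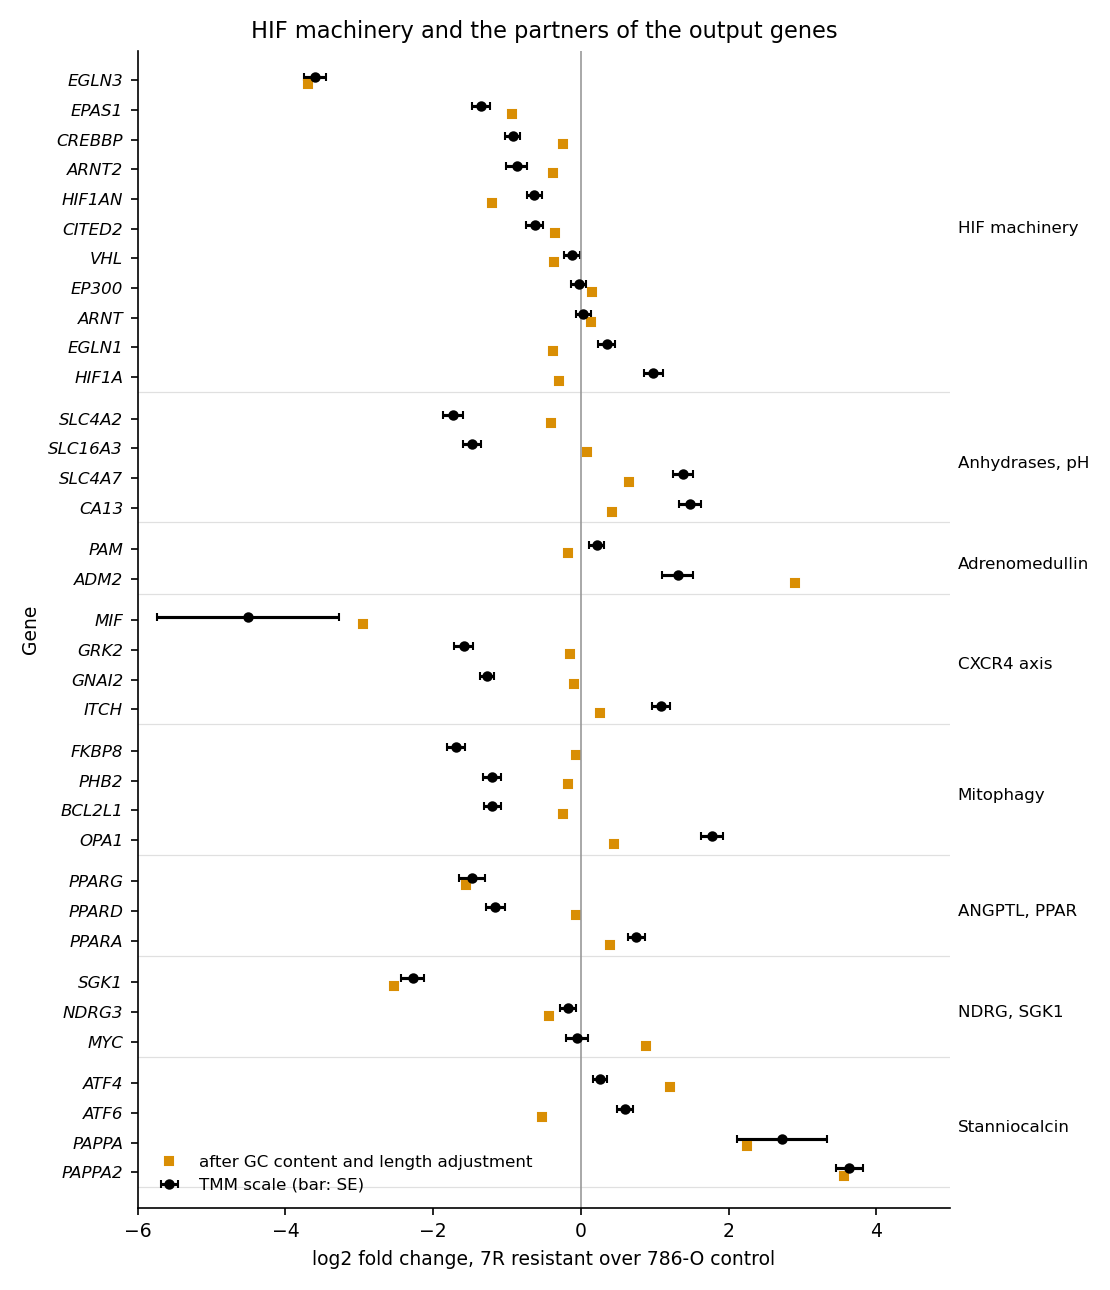
Log2 fold change, 7R resistant over 786-O control, of the tested HIF machinery genes and of the named partner genes of each output gene, on the TMM scale (black circles, bars for the standard error) and after adjustment for GC content and length (orange squares). EGLN3, EPAS1, PPARG and SGK1 lie below 0 and ADM2, PAPPA and PAPPA2 above 0 on both scales. HIF1A, EGLN1, EP300, SLC16A3, PAM, MYC and ATF6 change sign. Of these, EP300, SLC16A3 and PAM did not pass after the adjustment, and HIF1A was at an adjusted p of 0.0451 by edgeR.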

How the data were processed

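The authors deposited raw counts per gene symbol, 1 column per library, with column names equal to the sample titles. HISAT2 2.0.4 was among the tools, per the submitters' processing notes. Program and strand setting of the counting, genome build and annotation: not given in the sources used here. Genes were kept by filterByExpr (minimum count 10), scaled by TMM and tested with edgeR 4.0.16 (R 4.3.3) without covariates, with DESeq2 1.42.0 as an alternative. Standard errors were taken as |log2 fold change| divided by √F. For the GC content and length adjustment, each library's log2 CPM deviations (prior count 1) were fitted with splines (6 and 5 degrees of freedom) on GENCODE 29 basic transcripts, which matched 85.4% of tested genes, and used as an offset, so that any biological difference that follows GC content is removed too. Tests were also run on simulated counts in which few genes changed and no library stood apart, unlike these data, and no result here rests on that run. The 9 genes and all lists were chosen with earlier results of these data known. All 9 were reported. All tested HIF machinery genes could be named, and from other lists up to 4 with the smallest p at a mean of at least 5 CPM, genes at 0 throughout, and others where said to be chosen later. Totals were 37919629 to 52221491 counts, and intervals cover counting error only. In other settings normalization, filters, the test, a replicate block and single libraries were changed. Some genes that this rule would name are not reported here.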

Additional observations from a re-analysis of the deposited data

How the results depend on the processing

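Of 16642 tested genes 12683 passed, and 9501 of 14212 with the GC content and length offset. At least 2-fold changes fell to 3327 genes, against 8219, and among the 9 genes to 1 against 3, also with the replicate block added (3195 genes, 1 of the 9) and without resistant replicate 1 (3723 genes, 1 of the 9, chosen after seeing the data). Scaling by library size alone moved the median log2 fold change of all genes to 0.39, against 0.05. Under it STC2 passed as higher (0.37, adjusted p = 0.0228) and 3 of the 9 were higher, against 1. ANGPTL4, ADM and NDRG1 remained lower and past the threshold in every setting run, at log2 fold changes of -5.69 to -3.38, -1.996 to -0.64 and -1.80 to -0.35. BNIP3 turned higher and passed with library size alone (0.32). It was higher without passing under upper-quartile factors (0.039), a filter of 1 CPM in 3 libraries (0.020) and without resistant replicate 3 (0.0090). With the offset BNIP3 passed as lower (-0.49), also with the replicate block (-0.49) or without resistant replicate 1 (-0.57). BNIP3L lost its call in each setting with the offset and without resistant replicate 3, and CA12 lost its call with library size alone. ANKRD37 turned higher with the offset (0.36), with the offset and replicate block (0.40) and with the offset without resistant replicate 1 (0.73), never past the threshold. STC2 was -0.12 to 0.14 with single libraries left out, negative without resistant replicate 1 (-0.12), control replicate 1 (-0.020) or control replicate 3 (-0.038). Leaving out single libraries gave 12132 to 13199 changed genes and 4 to 5 of the 9. Whether equal replicate numbers pair libraries is not stated. Deviations of same-numbered libraries had correlations of -0.13, -0.013 and -0.058, which cannot decide it with so few libraries. With the replicate block 12097 genes and 5 of the 9 passed. The EGLN1 call was lost under the replicate block (edgeR adjusted p = 0.0589), and the lower GC-adjusted HIF1A call under the block with the offset (0.0809), which left 8 of the HIF machinery lower, against 9. The log2 ratio differences stayed between -0.75 and -0.35 for BNIP3 to BNIP3L and between 1.63 and 1.83 for STC2 to STC1 with a library left out, and were -0.52 and 1.73 with same-numbered libraries paired. Low counts limit what can be said of ANKRD37 and CXCR4, and their cause was not tested.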
